A study of Mus musculus with 31 samples.

Results

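The 10 genes described here are targets of the transcription factor NRF2 or parts of its switch: Gclc, Gclm, Slc7a11, Gsr, Nqo1, Hmox1, Txnrd1, Srxn1, Nfe2l2 and Keap1. They were taken by name, as the array probes annotated with these symbols, and make up 10 of the 19797 genes tested in distal colon of BALB/c mice. NRF2, encoded by Nfe2l2, is held in the cytoplasm and passed to degradation by KEAP1. Oxidants and electrophiles modify cysteines of KEAP1, NRF2 then accumulates, and with small MAF proteins it binds antioxidant response elements in front of genes for glutathione synthesis, thioredoxin recycling, quinone reduction and haem breakdown. In the colon this programme is known as a defence of the epithelium during colitis, and it is often read as a sign of oxidative stress.

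The study asked what the food additive E171, a food-grade titanium dioxide, does to gene expression over time in a chemically induced mouse model of colorectal cancer. Every mouse, controls included, received 1 injection of the carcinogen azoxymethane (AOM) a week before the start and dextran sodium sulfate (DSS), which causes colitis, in its drinking water for the first 5 days. Mice of both sexes were 4 to 6 weeks old at the start, so all groups share tissue under carcinogen and colitis treatment and no untreated colon was measured. The CRC groups were gavaged with water and the CRC + E171 groups with E171 at 5 mg per kg body weight, on 5 days a week, and colon was taken after 2, 7, 14 or 21 days. Of 31 single-colour arrays, each of the 8 groups had 4 (2 males and 2 females), except CRC at 21 days, which had 3 (1 male and 2 females). Arrays are named by group, labelled sex and the labels' replicate number. The study's scheme sampled 2 males and 2 females per treatment and day, as many as the arrays of a full group. Nothing in the labels ties each array to 1 mouse, so p-values measure the spread between these samples.

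Levels are given throughout as log2 of the processed signal over the 75th percentile of the same array, so that a level of 0 lies at that percentile and 1 unit is a 2-fold difference. A level belongs to its own probes and is not comparable between genes. The 10 genes had 16 probes, of which 13 passed the filter on dim signals, at least 1 for every gene. The probes dropped were 1 of Hmox1 and 2 of Slc7a11, each for another transcript and well above background on 0 of 31 arrays. The probes kept were well above background on 31 of 31 arrays, except those of Slc7a11, which were so on 25 and 23 arrays and on at least 2 arrays of every group. None was saturated.

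Some arrays stood apart in tissue make-up. In whole tissue, fewer cells of a type and less RNA per cell cannot be told apart. The summed level of 5 posterior Hox genes that mark the distal colon (Hoxb13, Hoxd13, Hoxd12, Hoxa13, Hoxd11) was -1.43 to -2.88 on the log2 scale on 3 arrays, and 2.01 to 6.61 on the others. The 3 low arrays were CRC + E171 7 days female 2 and CRC + E171 14 days female 1 and female 2. Hoxb13, at a median of 5.55, had its lowest level of -8.40 there, and as few as 2 of the 5 genes were well above background. For these 3 arrays the labelled distal colon was therefore not borne out by its defining markers. The summed level of 6 goblet cell genes was 1.87 and 5.49 in CRC 7 days male 1 and male 2 and 4.94 in CRC + E171 14 days male 2, against 7.82 or more elsewhere. These 3 arrays also had the highest summed neutrophil genes, at log2 summed levels of 8.45, 7.42 and 7.12, where the arrays of CRC at 14 days spanned 5.90 to 6.12. Low signal was not confined to goblet cell genes. In CRC at 7 days pan-epithelial genes summed to as little as 39.8 times the 75th percentile, against 307 or more in every other group. Surface colonocyte genes there summed to as little as 9.07, and to 57.5 in CRC + E171 at 14 days, against 217 or more in the other groups. Low goblet cell signal is used below only as a name for these 3 arrays. Squamous epithelium genes were raised above a log2 summed level of 5 on 4 arrays, namely CRC 7 days male 1, CRC 21 days female 1, CRC + E171 14 days male 2 and CRC + E171 21 days female 1. Pancreatic acinar genes summed to 1547 and 1641 times the 75th percentile in CRC + E171 2 days female 2 and CRC + E171 21 days female 2, against 425 or less elsewhere. The array labelled male 2 of CRC at 14 days had Xist at -1.58, within the range of the females, where the other males had -6.51 to -8.51. CRC arrays lay in column 2 of every slide and CRC + E171 arrays in column 4, so position and treatment cannot be told apart. The 75th percentile signal used for scaling was lower with E171, with group medians of 2280 to 2857 against 3288 to 4524 in CRC and no overlap at 2 days (2081 to 2974 against 3507 to 5244), and its part in the results was not tested. Results that rest on the arrays that stood apart are given with and without them, and the part of tissue make-up in them was not tested beyond that.

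Promoter sequence from RefSeq (GRCm38.p6) was at hand for 7 of the 10 genes, in 9 promoters of 250 bases before and 50 after a gene start. The core of the antioxidant response element was searched on both strands in 2 forms, TGACNNNGC and TGAGNNNGC. At least 1 match lay in 5 of the 9 promoters, of 5 genes (Gclm, Txnrd1 in 1 of its 3, Srxn1, Slc7a11, Nfe2l2), where 27.8% of the 32851 promoters searched held either form (12.4% and 17.6% for each). Srxn1 had 3 matches. Slc7a11 also held the amino acid response element TGATGCAA on either strand, at -66 and -47 from the start, a motif found in 0.895% of promoters. The 250 bases upstream of Gclm (chr3:122245307-122245556, plus strand), Srxn1 (chr2:152105274-152105523, plus strand) and Slc7a11 (chr3:50443614-50443863, minus strand) are shown because these genes had the lowest p among the 10 at 14 days, the most matches and the opposite direction. Motif matches are in capitals. A match is a run of letters, not a measured binding site.
Gclm: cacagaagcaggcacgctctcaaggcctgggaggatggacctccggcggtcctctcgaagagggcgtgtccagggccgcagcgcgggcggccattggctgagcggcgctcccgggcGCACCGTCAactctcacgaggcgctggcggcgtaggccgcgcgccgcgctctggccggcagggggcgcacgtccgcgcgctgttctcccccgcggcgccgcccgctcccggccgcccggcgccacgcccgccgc
Srxn1: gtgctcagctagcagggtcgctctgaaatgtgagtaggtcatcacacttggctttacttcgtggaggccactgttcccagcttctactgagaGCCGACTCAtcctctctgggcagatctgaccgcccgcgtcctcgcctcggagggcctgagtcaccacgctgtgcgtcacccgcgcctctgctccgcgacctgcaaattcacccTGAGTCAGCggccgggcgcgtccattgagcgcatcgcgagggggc
Slc7a11: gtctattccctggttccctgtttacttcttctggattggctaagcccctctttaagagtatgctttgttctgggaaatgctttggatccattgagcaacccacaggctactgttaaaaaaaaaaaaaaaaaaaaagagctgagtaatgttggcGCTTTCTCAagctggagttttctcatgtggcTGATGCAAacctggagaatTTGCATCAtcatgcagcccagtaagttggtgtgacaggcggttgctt

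The first question was what the genes did on each day of E171 exposure. After 14 days Gclc, Gclm and Nqo1 were higher with E171, by 1.80-, 1.86- and 2.30-fold. After 21 days Gclm and Txnrd1 were higher, by 1.51- and 1.58-fold, and after 7 days Hmox1 was lower, at 0.323 of the CRC level. These passed the threshold used here, a linear fold of at least 1.5 with an unadjusted p under 0.05 in limma. The methods write this cut-off as a log2 fold change, and with 1.5 on the log2 scale Hmox1 at 7 days was the only one of the 10 to pass on any day, against 0.298%, 3.33%, 1.72% and 0.333% of all genes at 2, 7, 14 and 21 days. After Benjamini-Hochberg adjustment over all genes 0 of the 10 passed 0.05 on any day, and the share of all genes doing so was 0% on each of the 4 days. The smallest adjusted p over all genes was 1.0, 0.187, 0.407 and 0.633 at 2, 7, 14 and 21 days. At an unadjusted p under 0.05 alone, 0, 1, 4 and 2 of the 10 genes passed, against 2.78%, 16.7%, 8.05% and 5.82% of all genes.

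**Figure D1:**
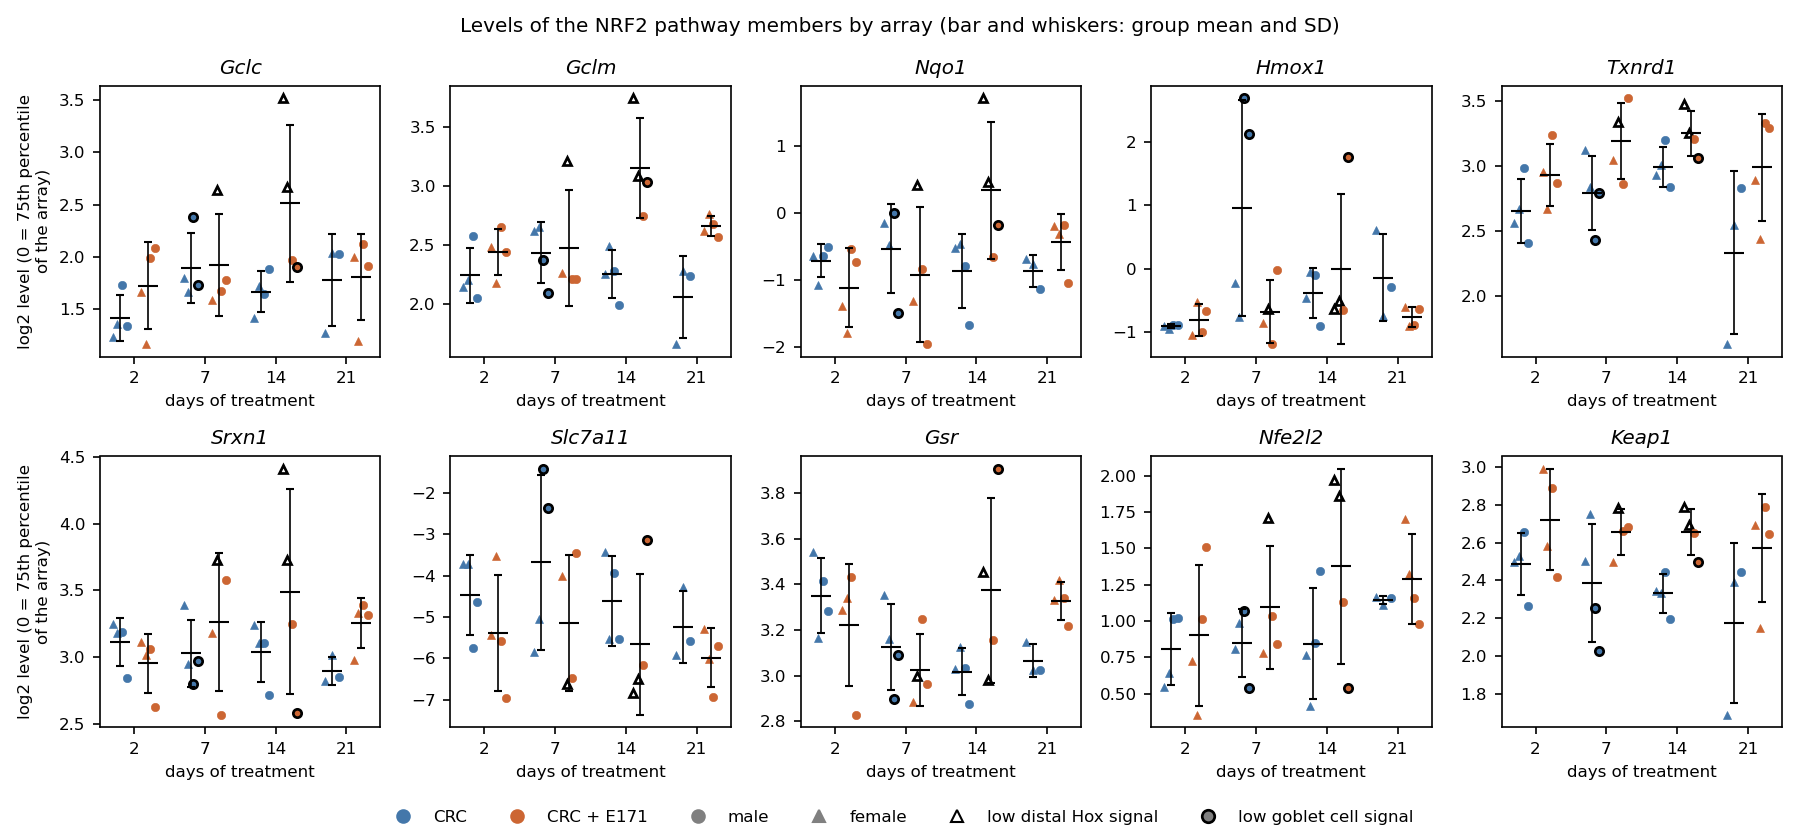
Level of each of the 10 genes (y axis, log2 of signal over the array's 75th percentile) on every array by day (x axis, days of exposure), CRC in blue and CRC + E171 in orange, males as circles and females as triangles, with bars and whiskers for the group mean and SD. Open black triangles mark the 3 arrays of low distal Hox signal and black rims the 3 arrays of low goblet cell signal, and Gclm at 14 days runs from 2.00 to 2.49 in CRC and from 2.75 to 3.74 in CRC + E171.

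**Figure D2:**
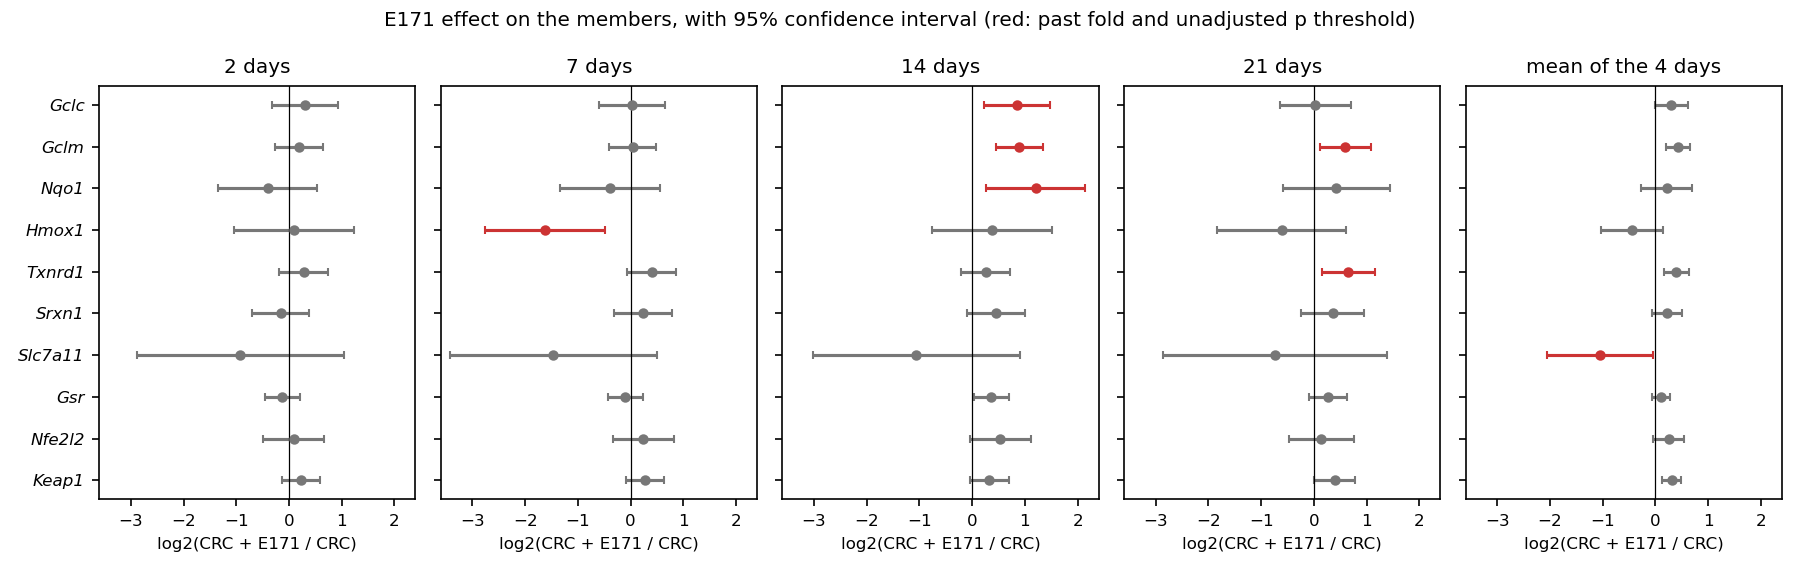
Log2 fold change of CRC + E171 over CRC (x axis) for each gene (y axis) at 2, 7, 14 and 21 days and as the mean of the 4 days, as points with 95% confidence intervals from limma. Red points passed a fold of 1.5 with an unadjusted p under 0.05: Hmox1 at 7 days, Gclc, Gclm and Nqo1 at 14 days, Gclm and Txnrd1 at 21 days and Slc7a11 in the mean.

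Gclm encodes the modifier subunit of glutamate-cysteine ligase, the rate-limiting enzyme of glutathione synthesis, and its probe lies at chr3:121967737-121967796 (mm9, the build of the array files, for which no annotation was used here). At 14 days its levels in CRC were 2.25 and 2.49 in the females and 2.28 and 2.00 in the males, and in CRC + E171 3.74 and 3.09 in the females and 2.75 and 3.03 in the males. All 4 exposed arrays lay above the highest CRC array, with the highest value on an array of low distal Hox signal. The log2 fold change was 0.90 (SE 0.22, adjusted p = 0.472), and the exact two-sided permutation test over the arrays gave 0.0286, the smallest it can give for 4 against 4. Without the 3 arrays of low distal Hox signal it was 0.63 (adjusted p = 1.0) and still past the threshold; without the 3 of low goblet cell signal it was 0.94 (adjusted p = 0.0424, the lowest of its alternatives, which reached 1.0). Within the scan day that holds arrays of both groups it was 0.79.

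Gclm was past the threshold at 21 days as well. Its levels there were 2.62, 2.76, 2.68 and 2.57 in CRC + E171 and 1.66, 2.28 and 2.24 in CRC, so the groups did not overlap. The log2 fold change was 0.60 (SE 0.24, adjusted p = 0.848), and the exact permutation p was 0.0571, the smallest possible for 4 against 3, so that this test cannot reach 0.05. Without CRC 21 days female 1, the lowest array and an array with squamous epithelium signal, it was 0.40, and without the 2 arrays of high acinar signal 0.56, both no longer past the threshold. At 2 and 7 days the Gclm effect was 0.19 and 0.04, and at 7 days the exposed female 2, of low distal Hox signal, stood at 3.21 with the other 3 at 2.22 to 2.27.

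Gclc encodes the catalytic subunit of the same ligase (probe at chr9:77641296-77641355, mm9). At 14 days its levels were 1.42 and 1.73 in CRC females, 1.65 and 1.89 in CRC males, 3.52 and 2.66 in exposed females and 1.97 and 1.91 in exposed males. The exposed arrays lay above every CRC array, the males by little and the females, both of low distal Hox signal, by far. The log2 fold change was 0.85 (SE 0.30, adjusted p = 0.524; exact permutation p = 0.0286). Without the 3 arrays of low distal Hox signal it was 0.27, and without exposed female 1 alone it was 0.51, in both cases no longer past the threshold. On the other days the effect was 0.31, 0.03 and 0.03 (SE 0.30 to 0.33).

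Slc7a11 encodes the cystine carrier of the system xc- exchanger, which supplies cysteine for glutathione, and had 2 probes, at chr3:50169700-50169759 and chr3:50176047-50176106 (mm9). It was the most variable of the 10 genes, with a residual SD of 1.41 between arrays of a group, above 96.4% of all genes, where the median gene had 0.44. At 7 days CRC had -5.86 and -5.05 in females and -1.41 and -2.37 in males, and CRC + E171 had -4.01 and -6.62 in females and -6.47 and -3.45 in males. The 2 CRC males, of low goblet cell signal, were the highest arrays of the series for this gene. The effect at 7 days was -1.46 (SE 0.95) and turned to 0.32 without the 3 arrays of low goblet cell signal. At 2, 14 and 21 days the effect was -0.92, -1.06 and -0.73, lower with E171 each time and not past the threshold on any day. At 14 days it was -0.055 without the 3 arrays of low distal Hox signal and -1.90 without the 3 of low goblet cell signal, then past the threshold (adjusted p = 0.185). Signals this near to background limit the precision of these values. At 14 days each probe was well above background on 4 of 4 CRC arrays but on 2 of 4 CRC + E171 arrays, so the size of the effects there is uncertain.

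Gsr, glutathione reductase, which returns oxidised glutathione to its reduced form, varied least, with a residual SD of 0.21. At 14 days it was 3.03, 3.13, 3.03 and 2.88 in CRC and 3.45, 2.98, 3.15 and 3.91 in CRC + E171, so the groups overlapped through exposed female 2. The effect of 0.36 (SE 0.16, adjusted p = 0.590) passed an unadjusted p of 0.05 but not the fold. Its highest array was exposed male 2, of low goblet cell signal, and without it the effect was 0.18 and no longer passed that p. At 21 days the groups did not overlap, with 3.33, 3.42, 3.34 and 3.22 against 3.15, 3.02 and 3.02 (0.26, SE 0.17; exact permutation p = 0.0571). Its effects at 2 and 7 days were -0.13 and -0.10.

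Nqo1 and Hmox1 are the detoxifying enzymes most often used as NRF2 reporters. NQO1 reduces quinones in a single step of 2 electrons that avoids radical intermediates (probe at chr8:109912440-109912499, mm9). At 14 days Nqo1 was -0.53 and -0.46 in CRC females, -0.79 and -1.67 in CRC males, 1.71 and 0.47 in exposed females and -0.65 and -0.18 in exposed males. The 2 exposed females, both of low distal Hox signal, were the highest arrays of the series, and exposed male 1 lay among the CRC arrays. The log2 fold change was 1.20 (SE 0.46, adjusted p = 0.542; exact permutation p = 0.0857). It was 0.45 without the 3 arrays of low distal Hox signal, 0.75 without exposed female 1 and 0.93 without CRC male 2, each no longer past the threshold. At 2 and 7 days the effect was -0.40 and -0.39, and at 21 days 0.43. Leaving out the low distal Hox array of 7 days alone gave -0.84 there, not past the threshold, and the fit without all 3 such arrays gave the same value past it (adjusted p = 0.319).

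HMOX1 breaks haem down to biliverdin, iron and carbon monoxide, and its gene answers to several stress pathways besides NRF2 (probe at chr8:77624406-77624466, mm9). At 7 days Hmox1 was -0.22 and -0.75 in CRC females and 2.68 and 2.12 in CRC males, against -0.86 and -0.63 in exposed females and -1.18 and -0.01 in exposed males. The 2 CRC males were the highest arrays of the series, and both had low goblet cell and high neutrophil signal. The log2 fold change was -1.63 (SE 0.55, adjusted p = 0.201; exact permutation p = 0.171). It was -0.18 without the 3 arrays of low goblet cell signal (adjusted p = 1.0) and -1.05 without CRC male 1, in both cases no longer past the threshold, while without CRC female 1 it was -2.02 (adjusted p = 0.0397, the lowest of its alternatives, which reached 1.0). The third highest array was CRC + E171 14 days male 2 at 1.76, again of low goblet cell signal, with the other 3 exposed arrays of that day at -0.65 to -0.50. On the other days the effect was 0.10, 0.37 and -0.61.

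Txnrd1 and Srxn1 serve the thioredoxin system. TXNRD1 reduces thioredoxin in the cytosol. At 21 days Txnrd1 was 1.63 and 2.54 in CRC females and 2.82 in the CRC male, and 2.89, 2.44, 3.33 and 3.29 in CRC + E171. The groups overlapped through exposed female 2, and CRC female 1 was the lowest array of the series. The log2 fold change was 0.66 (SE 0.24, adjusted p = 0.848; exact permutation p = 0.229), and 0.30 without CRC female 1, no longer past the threshold. The effect was 0.28, 0.40, 0.26 and 0.66 at 2, 7, 14 and 21 days, and at 2 days -0.11 for the brighter of its 2 probes alone. The brighter, at chr10:82360230-82360289 (mm9), had a 4-day mean effect of 0.12 (adjusted p = 0.638 over 42787 probes) and the other, at chr10:82338379-82338438, 0.67 (adjusted p = 0.291). At 21 days the brighter gave 0.36, below the fold, and the other 0.95, so the Txnrd1 call there rests on the dimmer probe.

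SRXN1 repairs overoxidised peroxiredoxins. At 14 days Srxn1 was 3.24, 3.1, 3.1 and 2.71 in CRC and 4.41 and 3.73 in exposed females and 3.24 and 2.58 in exposed males. Its highest values, like those of Gclc, were on exposed females of low distal Hox signal, and the groups overlapped. The effect was 0.45 (SE 0.27), -0.13 without the 3 arrays of low distal Hox signal and 0.76 without the 3 of low goblet cell signal. On the other days it was -0.16, 0.24 and 0.36, none past the threshold.

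The switch itself gave small differences. Nfe2l2 at 14 days was 0.77, 0.42, 0.85 and 1.34 in CRC and 1.97, 1.86, 1.13 and 0.54 in CRC + E171. The exposed females were again high, with exposed male 2, of low goblet cell signal, low. The effect was 0.53 (SE 0.28), -0.01 without the 3 arrays of low distal Hox signal and 0.81 without the 3 of low goblet cell signal, which put it past the threshold. On the other days it was 0.094, 0.24 and 0.14. Its 2 probes had 4-day mean effects of 0.18 and 0.32. The second is for another transcript and dimmer, with a mean level of -1.15 against 3.22. The 2 probes gave -0.11 and 0.30 at 2 days, 0.0072 and 0.48 at 7 days, 0.48 and 0.59 at 14 days and 0.35 and -0.061 at 21 days.

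Keap1, the inhibitor of NRF2, had a small positive difference on every day. At 14 days it was 2.35, 2.34, 2.45 and 2.20 in CRC and 2.79, 2.69, 2.65 and 2.50 in CRC + E171. All exposed arrays lay above all CRC arrays, the males included (0.33, SE 0.18, adjusted p = 0.659; exact permutation p = 0.0286). The effect was 0.23, 0.27, 0.33 and 0.39 at 2, 7, 14 and 21 days, in every case below the fold of 1.5. At 21 days it was 0.15 without CRC female 1, an array of squamous epithelium signal, and within the scan day that holds both groups 0.67 (adjusted p = 0.917), past the threshold. Without the 3 arrays of low distal Hox signal it was 0.24 at 14 days.

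The 10 genes were also counted together beside all genes on each day. At 2 days 0 of 10 passed the threshold, against 1.76% of all genes, and their median log2 fold change was 0.10, against 0.06 over all genes. At 7 days 1 of 10 passed, in the lower direction, against 12.4% of all genes in either direction and 5.53% lower. At 14 days 3 of 10 passed, all higher, against 6.35% in either direction and 3.29% higher, and 9 of 10 had a positive effect where 51.9% of all genes did. The median of the 10 was 0.41 at 14 days, against 0.02 over all genes. Without the 3 arrays of low distal Hox signal 7 of 10 had a positive effect at 14 days, against 50.9% of all genes, their median was 0.26, and 1 of 10 passed (Gclm), against 3.08% of all genes in that fit. Without the 3 of low goblet cell signal 6 of 10 did (Gclc, Gclm, Nqo1, Srxn1 and Nfe2l2 higher, Slc7a11 lower), against 14.1%. At 21 days 2 of 10 passed, both higher, against 2.68% in either direction and 0.879% higher, with a median of 0.31 against 0.02. Leaving out exposed female 1 alone gave 1 of 10 at 14 days, against 4.47% of all genes, and leaving out exposed male 2 gave 5, against 10.8%. Without the 4 arrays of squamous epithelium signal, or without CRC female 1 alone, 0 of 10 passed at 21 days, against 2.77% and 2.4% of all genes. The count at 21 days was also 0 with quantile normalization and with the authors' normalized values, against 2.59% and 3.52%, and the median of the 10 was then 0.14 and 0.097.

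Groups of arrays that do not overlap gave a similar order. At 14 days 3 of 10 genes had no overlap (Gclc, Gclm, Keap1), where 6.02% of all genes had none, and at 21 days 2 of 10 (Gclm, Gsr), against 7.98%. At 2 and 7 days 0 of 10 did, against 3.86% and 4.84%. These exact permutation tests numbered 40, over 10 genes and 4 days.

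The mean of the 4 daily effects uses all 31 arrays. Here Gclm (0.43, SE 0.11), Txnrd1 (0.40, SE 0.12) and Keap1 (0.31, SE 0.091) were higher and Slc7a11 (-1.05, SE 0.49) lower at an unadjusted p under 0.05, each with an adjusted p of 0.495. The others were Gclc (0.30, SE 0.16), Nfe2l2 (0.25, SE 0.14), Srxn1 (0.22, SE 0.14), Nqo1 (0.21, SE 0.23), Gsr (0.097, SE 0.082) and Hmox1 (-0.44, SE 0.28). That is 4 of 10 genes, against 10% of all genes. The brighter probe of Txnrd1 alone gave 0.12 and did not pass that p, and the dimmer gave 0.67. Only Slc7a11 of the 10 also passed the fold, against 1.79% of all genes, and 0 of 10 passed an adjusted p of 0.05, against 0.00505%. On leaving out each array in turn Slc7a11 passed in 14 of 31 fits. It also lost the threshold with normexp background correction (-0.30), with no filter on dim probes (-0.51) and without the 3 arrays of low goblet cell signal (-0.81). The probes of Slc7a11 were well above background on 15 and 14 of 15 CRC arrays but on 10 and 9 of 16 CRC + E171 arrays. The exposed values thus include arrays at background, and the part of these in the size of the effect was not tested. Without the 3 arrays of low distal Hox signal Gclm, Txnrd1 and Keap1 kept an unadjusted p under 0.05 (0.31, 0.36 and 0.27; 4.00% of all genes did), Slc7a11 did not (-0.67), and Nqo1 turned from 0.21 to -0.09. Without exposed male 2 of 14 days 8 of 10 genes had an unadjusted p under 0.05, against 17.7% of all genes. No slide held both groups of a day, but each slide held CRC of a day and CRC + E171 of another, so that the mean over 2 days can be taken within slides. Over 2 and 14 days within slides Gclc (0.58), Gclm (0.54), Txnrd1 (0.27) and Keap1 (0.28) were higher at an unadjusted p under 0.05 (adjusted p from 0.334 to 0.428), against 9.96% of all genes. With the low distal Hox arrays left out Gclc was 0.29 and Txnrd1 0.21, neither at that level, which left 2 genes, against 8.84%. Taking the brighter probe of Txnrd1 gave 0.026, not at that level. Gclc also lost it on leaving out any 1 of 5 of the 16 arrays (CRC 2 days female 1, CRC + E171 2 days male 1 or male 2, CRC 14 days female 1, CRC + E171 14 days female 2). The other 6 ran from -0.99 (Slc7a11) to 0.40 (Nqo1). Over 7 and 21 days within slides Txnrd1 was higher (0.49) and Hmox1 lower (-1.13) at that level (adjusted p = 0.747), against 4.34% of all genes. On leaving out each of the 15 arrays in turn Txnrd1 stayed at that level in 5 cases and Hmox1 in 4, and the brighter probe of Txnrd1 gave 0.18, not at that level. With the low distal Hox, the low goblet cell or the squamous arrays left out, and with quantile normalization, 0 genes passed, against 3.49%, 2.65%, 2.69% and 4.10%, and Hmox1 was -0.40 without those of low goblet cell signal. The other 8 ran from -1.16 (Slc7a11) to 0.31 (Keap1). In both fits 0% of all genes passed an adjusted p of 0.05.

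Whether the E171 effect differed between days was tested by an F-test in limma. It passed an unadjusted p of 0.05 for 1 of 10 genes, Gclm (adjusted p = 0.719), against 6.53% of all genes, and for 0% after adjustment. The count was 1 in 19 of 40 alternatives. It was 0 with the authors' values and without the squamous or the acinar arrays, against 8.14%, 6.77% and 6.86%. Among CRC arrays alone Hmox1 was the 1 gene of 10 that differed between days at that level (adjusted p = 0.492; 9.93% of all genes, 0% after adjustment). Its mean was -0.90 ± 0.03 (SD, n = 4) at 2 days and 0.96 ± 1.70 at 7 days, a difference of 1.86 (SE 0.55, adjusted p = 0.197) that rests on the 2 CRC males of 7 days. Without the 3 arrays of low goblet cell signal 0 of 10 genes passed this test. Among CRC + E171 arrays Gclm (adjusted p = 0.225) and Nqo1 (adjusted p = 0.256) differed between days at an unadjusted p under 0.05, against 14.6% of all genes and 0% after adjustment. From 2 to 14 days of exposure Gclc, Gclm and Nqo1 rose past the threshold, by 0.79, 0.71 and 1.45, where the CRC arrays differed by 0.25, 0.0092 and -0.15 over the same days. These are 3 of 10 genes, against 2.75% of all genes higher at 14 days. With the 3 arrays of low distal Hox signal left out the differences were 0.22, 0.45 and 0.70 and 0 of 10 genes were higher past the threshold, against 1.76%. Without the arrays of high acinar signal Gclc was 0.60 and no longer past it, while Gclm (0.63) and Nqo1 (1.22) were. Without those of low goblet cell signal, or of squamous epithelium signal, Srxn1 (0.84) and Nfe2l2 (0.76) passed as well as these 3 genes. The exposed mean of Nqo1 went from -1.11 ± 0.58 to 0.34 ± 1.02 and was -0.43 ± 0.41 at 21 days.

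Labelled males and females were compared next. Averaged over the 8 groups, the difference of female minus male was 0.30 for Srxn1 (adjusted p = 0.374) and -0.46 for Hmox1 (adjusted p = 0.463), both at an unadjusted p under 0.05. The 3 arrays of low distal Hox signal are all labelled female and the 3 of low goblet cell signal all male. The former include both females of CRC + E171 at 14 days, and the latter both males of CRC at 7 days. Without either set the difference is therefore averaged over the groups that still hold both sexes, not over all 8. Without the former the differences were 0.13 and -0.38, without the latter 0.25 and 0.059, and neither gene passed in either case, so labelled sex and these arrays cannot be told apart. Gclc did pass without the former (-0.33, adjusted p = 0.369; 9.87% of all genes). Without the 4 arrays of squamous epithelium signal Hmox1 (-0.38, adjusted p = 0.199) and Nqo1 (0.50, adjusted p = 0.262) passed, against 18.3% of all genes. Over all arrays it was 2 of 10 genes, against 10.3% of all genes, and 0.162% of all genes passed after adjustment. The mean E171 effect differed by sex for Nfe2l2 alone, larger in females by 0.49 (adjusted p = 0.897), where 5.35% of all genes passed the unadjusted p and 0.00505% the adjusted one. Without the array labelled male 2 of CRC at 14 days that difference was 0.43 and did not pass, and without the 4 of squamous epithelium signal it was 0.31 and did not pass either, while Hmox1 did (0.67, adjusted p = 0.285; 15.3% of all genes). It could not be estimated without either set of 3 arrays, which leaves no array of a sex in 1 group. At 7 days, a contrast chosen after its values were seen, the Hmox1 effect was 2.74 higher in females than in males (SE 0.82, adjusted p = 0.0709), against 18.1% of all genes at an unadjusted p under 0.05 and 3.64% after adjustment. It was 2.63 without the arrays of low distal Hox signal (adjusted p = 0.225). Without those of squamous epithelium signal it was 2.45 (adjusted p = 0.0164), a fit that keeps 1 CRC male of 7 days, of low goblet cell signal, and assumes that it varies like the other groups. Both CRC males of 7 days carry the low goblet cell signal, so labelled sex and tissue make-up cannot be told apart there. Males lay in row 1 and females in row 2 of each slide.

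A list of 62 other NRF2-linked genes, 61 of them tested, was counted beside all genes. At 2 and 21 days 0 of 61 passed the threshold, against 1.76% and 2.68% of all genes. At 7 days 5 were higher and 6 lower, against 12.4% of all genes in either direction, with a median of 0.07, and without the 3 arrays of low goblet cell signal 0 were higher and 2 lower, against 2.67%. Of the 11 at 7 days the 3 largest were Slc40a1, the iron exporter ferroportin (1.78, adjusted p = 0.200), Akr1c13, an aldo-keto reductase (1.70, adjusted p = 0.221), and Cbr3, a carbonyl reductase (-1.35, adjusted p = 0.200). Their extremes were on the CRC males of low goblet cell signal, with Slc40a1 at -2.92 and -2.57 and Cbr3 at 4.12 and 1.69. At 14 days 2 were higher and 0 lower, against 6.35% of all genes in either direction and 3.29% higher, with a median of 0.14. With the low distal Hox arrays left out 0 of 61 passed at 14 days, against 3.08% of all genes, with a median of 0.058. Ugt1a6a, which couples glucuronic acid to phenols, was -3.73, -3.24, -3.1 and -2.26 in CRC and -1.05, -1.32, -2.81 and -2.95 in CRC + E171 (1.05, SE 0.47, adjusted p = 0.589). Abcc3, which exports conjugates from the cell, was 0.21, 0.48, 0.64 and 0.59 in CRC and 2.41, 1.72, 0.91 and 0.20 in CRC + E171 (0.83, SE 0.39, adjusted p = 0.599). In both genes the exposed females of low distal Hox signal were the high arrays. By function, the genes with a positive effect at 14 days, where 51.9% of all genes had one, were 14 of 15 of glutathione conjugation and export, 8 of 10 of quinone, aldehyde and other phase II enzymes and 5 of 6 of the pentose phosphate route and NADPH supply. The others were 5 of 7 of iron and haem, 4 of 6 other targets, 3 of 5 of thioredoxin and peroxide and 5 of 12 KEAP1 and NRF2 partners. With those arrays left out the first 3 groups had 8 of 15, 4 of 10 and 4 of 6, and the others 7 of 7, 4 of 6, 3 of 5 and 8 of 12, against 50.9% of all genes. At 21 days the groups had, in the same order, 12 of 15, 8 of 10, 3 of 6, 6 of 7, 4 of 6, 5 of 5 and 6 of 12, against 52.4%. In the mean of the 4 days Ugt1a6a (0.66) and Abcc3 (0.65) were the 2 genes of 61 past the threshold, against 1.79% of all genes. With the low distal Hox arrays left out they were 0.36 and 0.38 and 0 of 61 passed, against 0.642%.

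How the genes varied together was described over arrays. Because 3 arrays formed a cluster of their own, correlations are given over the 28 arrays without those of low distal Hox signal, and again over the 28 without those of low goblet cell signal. Txnrd1 and Keap1 were alike in both, with Pearson's r of 0.71 and 0.76. Over all 31 arrays, where neither gene singled out those clusters, r was 0.74 and Spearman's rho 0.66 (permutation p = 2e-05 and 0.00013, adjusted over 45 pairs 0.000225 and 0.00195), and r was 0.61 without the 2 arrays farthest from the median of Txnrd1. Gclm and Nqo1 had r of 0.51 and 0.78, Gclc and Gclm 0.40 and 0.80, Gclc and Nfe2l2 0.41 and 0.75, and Gclm and Srxn1 0.19 and 0.77. Over the 25 arrays without either set these 4 pairs had r of 0.46, 0.44, 0.50 and 0.42, below the values over the 28 that keep the low distal Hox arrays. Hmox1 and Slc7a11 had r of 0.64 and 0.09, and 0.11 over the 25 arrays. Slc7a11 and Nfe2l2 ran against each other in both sets, with r of -0.53 and -0.67.

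**Figure D3:**
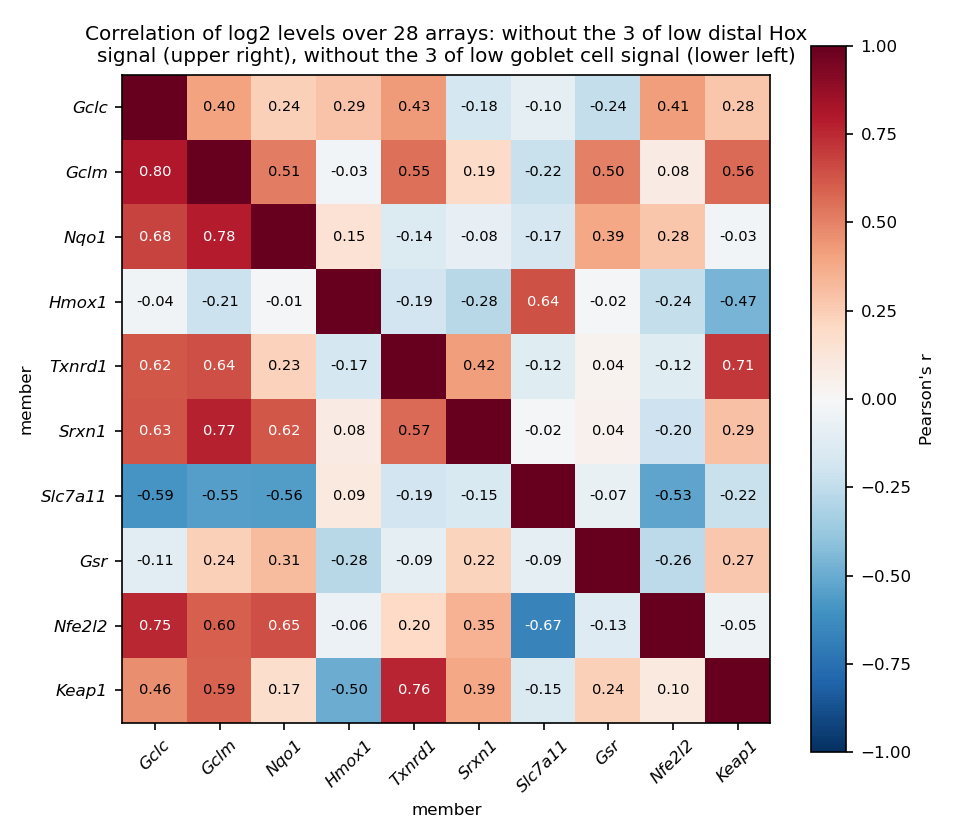
Pearson's r between the log2 levels of each pair of genes over 28 arrays, as colour and number: above the diagonal without the 3 arrays of low distal Hox signal, below it without the 3 arrays of low goblet cell signal. Txnrd1 and Keap1 reach 0.71 and 0.76, and Hmox1 and Slc7a11 go from 0.64 to 0.09.

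Levels of the genes were set beside the summed levels of 17 marker lists, which made 170 relations. Slc7a11 ran with the 8 macrophage genes, with r = 0.84 and rho = 0.84 over 31 arrays (permutation p = 1e-05 for both, the smallest the resamples can give; adjusted over the 170 relations 0.000425 and 0.00085). It was 0.80 without the 2 arrays farthest from the median macrophage level, 0.80 within groups, 0.81 without the low distal Hox arrays and 0.83 without those of low goblet cell signal. Nfe2l2 ran against the same list (r = -0.75, rho = -0.71, adjusted p = 0.000425 and 0.00113 by permutation; -0.72 without the 2 farthest arrays and -0.74 within groups). Macrophage genes had median sums of 27.7, 29.3, 24.7 and 21.9 times the 75th percentile in CRC + E171 at 2, 7, 14 and 21 days and of 31.7, 36.3, 35.3 and 27.9 in CRC, lower with E171 on each day, as was Slc7a11. The ranges overlapped on every day, with 18.2 to 32.4 against 21.8 to 41.5 at 14 days, and their part in the Slc7a11 effect was not tested. Hmox1 ran with the 5 endothelium genes (r = 0.78, rho = 0.58, adjusted p = 0.00106 and 0.0298 by permutation; 0.71 within groups, 0.52 without the arrays of low goblet cell signal and 0.58 without the 2 farthest arrays). Txnrd1 and Keap1 had r of 0.60 and 0.50 with the 5 B cell genes (adjusted p = 0.0111 and 0.0393 by permutation; 0.64 and 0.53 within groups), but rho of 0.42 and 0.25 and, without the 2 farthest arrays, r of 0.20 and 0.094, so that both relations rest on those arrays. Hmox1 and goblet cell genes had r of -0.29 over the 28 arrays without those of low goblet cell signal. Gclc and the distal Hox genes had r of -0.35 over the 28 arrays without the low ones.

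**Figure D4:**
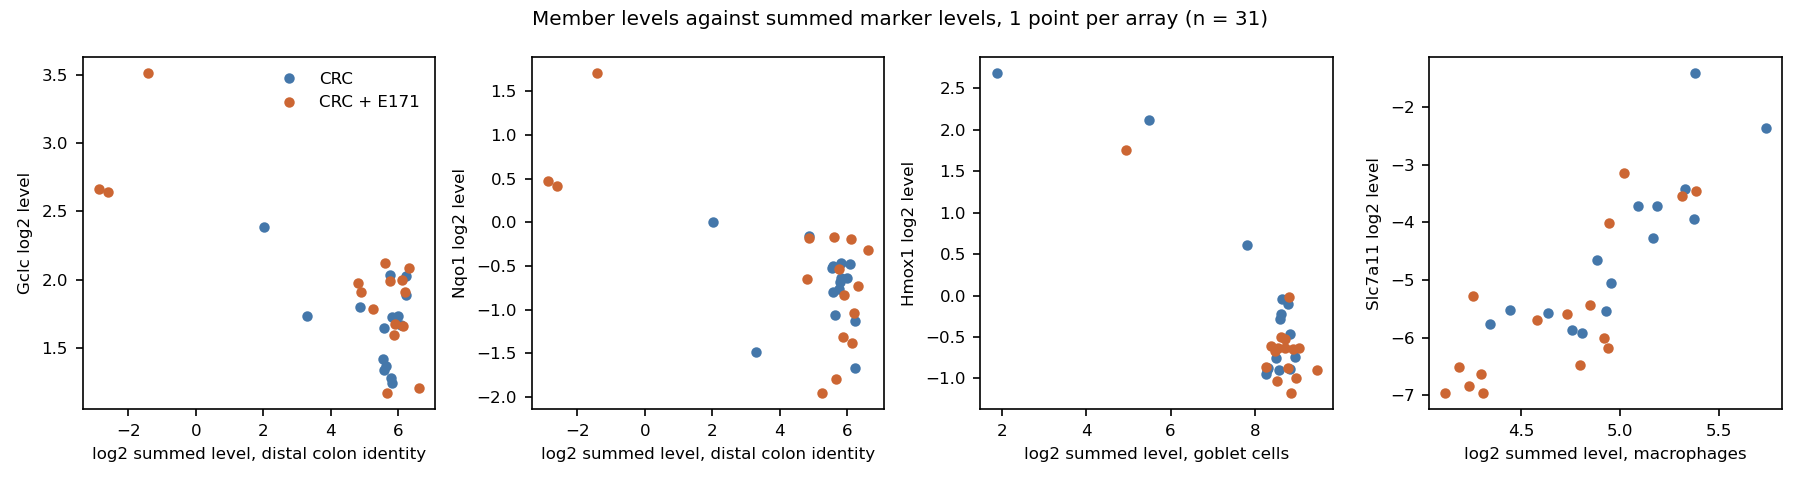
Levels of Gclc and Nqo1 against the summed distal Hox genes, of Hmox1 against goblet cell genes and of Slc7a11 against macrophage genes (both axes log2, relative to the array's 75th percentile), with 1 point for each of 31 arrays, CRC in blue and CRC + E171 in orange. The 3 arrays of low distal Hox signal, at -1.43 to -2.88, hold the highest Gclc and Nqo1, and the 3 of low goblet cell signal the highest Hmox1, from 1.76 to 2.68.

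Over the 31 arrays each gene was also matched with the gene outside the set whose levels were most like its own, among 19731 genes. The closest were Cpxm1 for Slc7a11 (r = 0.93, rho = 0.91) and Ndrg1 for Nfe2l2 (r = 0.90, rho = 0.90). Sf3b2 was the closest gene of both Txnrd1 (r = 0.86) and Keap1 (r = 0.86). The closest to Hmox1 was Ier3, with r = 0.94 but rho = 0.76. These arrays share tissue make-up, and no p is given for a gene picked as the closest.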

How the data were processed

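Total RNA from distal colon was labelled with Cy3 and hybridised to Agilent mouse arrays (design 074809), 31 in all on 8 slides over 3 scan days. The deposited intensity files are the authors' scanner output from Feature Extraction 10.7.3.1, background-subtracted by that software and not normalized between arrays, with probe positions on mm9. The authors also deposited a table of log2 values for 42568 probes, whose column medians of 9.43 to 9.67 and fit to the scanner values (Spearman at least 0.994 for each array) show log2 signals with no centring of genes. Its normalization method is not given in the sources used here, and it served as an alternative. From 67.4% to 78.9% of spots were well above background, with a 75th percentile signal of 1698 to 6485. Precision is set by the 3 or 4 arrays in a group.

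Here log2 processed signals were scaled to each array's 75th percentile, outlier spots were left out, and probes were kept where at least 60% of the arrays of a group were well above background with a mean log2 signal of at least 4. Probes of a gene were averaged. Probes were named through RefSeq by accession (32994), symbol (10224) or synonym (520), and 12867 kept the name in the files. The 8 groups were fitted together with limma 3.58.1 in R 4.3.3 (lmFit, eBayes), with Benjamini-Hochberg adjustment over 19797 genes, and the scripts were tested on simulated data. Single genes were also compared by exact two-sided permutation tests, and correlations by 100000 permutations. Every one of the 10 genes is described on each day and in the mean of the 4 days, and in the other comparisons genes that passed are named and the rest given as counts or ranges, a narrower use than the planned naming of all 10. Of the other NRF2-linked genes, the 3 largest changes past the threshold on a day are named. The genes, lists and tests were chosen with earlier results of these data known, and the 4 sets of arrays left out, the brightest probe within slides, the log2 reading of the fold and the sex contrast at 7 days were added after seeing the data. Alternatives covered normalization, background, dim probes, the choice of probe, blocks by scan day, slide or replicate number, array weights and each array left out. No 2 arrays were duplicates (highest Spearman 0.992).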

Additional observations from a re-analysis of the deposited data

Results flagged for a closer look

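Of 70 sets of 4 arrays, each a gene in a group, 4 held an array farther from the others than Dixon's test allows, where chance gives about 1 set in 20. Gclm in CRC + E171 at 7 days was 3.21 on female 2, an array of low distal Hox signal, with the other 3 arrays at 2.22 to 2.27. Hmox1 in CRC + E171 at 14 days was 1.76 on male 2, an array of low goblet cell and high neutrophil signal, with the others at -0.65 to -0.50. Nqo1 in CRC + E171 at 21 days was -1.04 on male 2, with the others at -0.32 to -0.17. Srxn1 in CRC at 2 days was 2.84 on male 2, with the others at 3.18 to 3.24. The part of tissue make-up in the first 2 was not tested. The F-test between days and the sex contrasts held 0 of the 10 genes at an adjusted p under 0.05, with 1 of 10 (days), 2 of 10 (sex) and 1 of 10 (sex by E171) at an unadjusted p under 0.05 in limma, where 6.53%, 10.3% and 5.35% of all genes were.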

How the results depend on the processing

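Counts here are of the 10 genes past the fold and p threshold, and effects are log2 fold changes, unless said otherwise. A gene passed the F-tests and the comparisons within slides at an unadjusted p under 0.05. Percentages are the share of all genes that passed in the same fit. With quantile normalization the count at 21 days went from 2 to 0 (2.59%), as with the authors' values (3.52%), where Gclc at 21 days turned from 0.03 to -0.051 and -0.098. With normexp background correction the count was 1 at 21 days (1.81%) and 0 in the 4-day mean (1.01%; 1 in the main analysis). With no filter on dim probes it was 0 in the mean (1.64%), and Hmox1 at 14 days turned from 0.37 to -0.042. Taking the brightest probe gave 1 at 21 days (2.97%), with Txnrd1 (0.36) no longer past the threshold. It also turned Txnrd1 and Nfe2l2 at 2 days to -0.11 and -0.11. Scan day as a block turned Gclc and Gclm at 7 days to -0.14 and -0.018. Array weights gave 0 at 7 days (3.47%), 5 at 14 days (12.9%), 1 at 21 days (6.03%) and 7 genes at an unadjusted p under 0.05 in the mean (17.4%), and turned Hmox1 at 2 days (-0.015) and 14 days (-0.089), Gclm at 7 days (-0.24) and Slc7a11 at 7 days (0.23). Fitting only the arrays of the groups compared left the effects themselves unchanged and gave 0 at 7 days (4.82%) and 1 at 21 days (4.00%). Within scan day 1 the count at 21 days was 1 (4.60%), which was Keap1 (0.67), while Gclm (0.70) and Txnrd1 (0.88) did not pass there, and at 7 days Gclc (-0.46), Gclm (-0.26), Srxn1 (-0.22) and Nfe2l2 (-0.031) turned. Within scan day 2 the count at 14 days was 1 (10.2%), which was Gclm, while Gclc (0.75) and Nqo1 (0.81) did not pass there. Hmox1 (-0.10), Srxn1 (0.075) and Gsr (0.14) at 2 days and Srxn1 at 14 days (-0.016) turned.

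With the 3 arrays of low distal Hox signal left out the counts were 2 at 7 days (11%), 1 at 14 days (3.08%) and 0 in the mean (0.642%). Gclc (-0.21) and Gclm (-0.20) at 7 days, Srxn1 (-0.13) and Nfe2l2 (-0.0082) at 14 days and Nqo1 in the mean (-0.090) turned. Within slides 0 genes over 7 and 21 days (3.49%; 2 in the main analysis) and 2 over 2 and 14 days (8.84%; 4 in the main analysis) had an unadjusted p under 0.05, with Srxn1 at -0.14. Leaving out the 3 of low goblet cell signal gave counts of 0 at 7 days (2.67%), 6 at 14 days (14.1%) with 1 gene at an adjusted p under 0.05 (2.02%), and 0 in the mean (1.61%). Gclm (-0.16) and Slc7a11 (0.32) at 7 days and Hmox1 at 14 days (-0.22) turned. Within slides 0 genes passed over 7 and 21 days (2.65%), with Gclc at 0.068, and Hmox1 over 2 and 14 days was -0.057. F-tests then passed for 2 genes in the effect between days (10.6%), 0 in CRC (7.19%) and 4 in CRC + E171 (23.2%). Without the 4 arrays of squamous epithelium signal the counts were 6 at 14 days (12%) and 0 at 21 days (2.77%), Hmox1 at 14 days was -0.22 and Gclc at 21 days -0.29. Within slides 0 genes passed over 7 and 21 days (2.69%), with Nqo1 at 0.11, and Hmox1 over 2 and 14 days was -0.057. F-tests passed for 0 genes in the effect between days (6.77%) and 4 in CRC + E171 (16.1%).

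With the 2 arrays of high pancreatic acinar signal left out the count was 1 at 21 days (3.22%), 0 genes passed the F-test between days (6.86%), 1 differed by sex (8.41%) and Gclc within slides over 7 and 21 days was 0.063. With the fold of 1.5 read on the log2 scale the counts were 0 at 14 days (1.72%), 0 at 21 days (0.333%) and 0 in the mean (0.0455%). Genes that differed by sex were 1 without the low distal Hox arrays (9.87%), with 2 in the effect at 7 days (13.4%), and 0 without those of low goblet cell signal (12.4%).

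Within slides over 7 and 21 days, quantile normalization gave 0 genes (4.10%; Nqo1 0.00200) and the authors' values 1 (4.66%), the brightest probe gave 1 (4.37%), and with no slide term Gclc was 0.028 and Nqo1 0.019. With the authors' values 0 genes passed the F-test between days (8.14%) and 1 differed by sex (9.83%). Without the array labelled male 2 of CRC at 14 days 0 genes differed by sex in the mean effect (4.22%). The labels' numbers were checked as pairs of CRC and CRC + E171 arrays of a sex and day: 15 same-numbered pairs deviated from their group means with correlations from -0.18 to 0.48, 8 of them over 0.1, so the numbers were not taken as pairs. With sex and number as a replicate block 2 genes passed the F-test between days (9.14%), and Gclm at 14 days had an adjusted p of 0.163. The block changed no other call.

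Leaving out each array in turn, the count at 7 days ran from 0 to 2 (0 without CRC male 1, 4.65%, and 2 without CRC female 1, 20.1%), with 0 to 1 at an adjusted p under 0.05 (1 without CRC female 1, 6.07%, or female 2, 2.44%). At 14 days it ran from 1 (without exposed female 1, 4.47%) to 5 (without exposed male 2, 10.8%), at 21 days from 0 to 2 (0 without CRC female 1, 2.4%) and in the mean from 0 to 2 (1.12% to 4.01% over these fits). Genes at an unadjusted p under 0.05 in the mean ran from 3 to 8 (6.95% to 17.7%; 8 without exposed male 2 of 14 days). Within slides over 7 and 21 days they ran from 0 to 3 (1.99% to 14.4%). F-tests passed for 0 to 2 genes between days (4.81% to 11.8%), 0 to 2 in CRC (4.89% to 18.4%) and 0 to 4 in CRC + E171 (12.2% to 16.8%). Ranges that crossed 0 were Gsr (-0.20 to 0.00199) and Nfe2l2 (-0.11 to 0.28) at 2 days, Gclc (-0.21 to 0.19) and Gclm (-0.20 to 0.13) at 7 days, Hmox1 at 14 days (-0.22 to 0.58) and Gclc at 21 days (-0.22 to 0.23). Within slides they were Gclc (-0.098 to 0.091) and Nqo1 (-0.20 to 0.19) over 7 and 21 days and Hmox1 (-0.057 to 0.39) over 2 and 14 days. Gclm at 14 days kept its direction and its side of the threshold in 49 settings, from 0.63 to 1.03, but did not reach a fold of 1.5 read on the log2 scale. Slc7a11 in the mean did so in 26 of 47. Keap1 and Txnrd1 in the mean, below the fold throughout, ran from 0.24 to 0.35 and from 0.12 to 0.46. The cause of each change was not tested.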
